A study of Mus musculus with 4 samples.

Results

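The genes described are the G1 cyclins and CDK inhibitors of the embryonic mouse gonad, 7 genes taken by name from the 21495 genes of the integrated single-cell count table. They are the D-type cyclins Ccnd1, Ccnd2 and Ccnd3, the CIP/KIP inhibitors Cdkn1a (p21), Cdkn1b (p27) and Cdkn1c (p57), and the INK4 inhibitor Cdkn2c (p18). The study asked how gonads develop without the microRNA cluster miR-17~92, and single cells were profiled in 4 samples with 1 sample per group. XY control embryos, taken at E11.5, were grown by tetraploid complementation from unedited G4 mouse embryonic stem cells. The XY KO samples at E11.5 and at E11.75 were grown in the same way from G4 cells in which CRISPR had removed miR-17~92 from both alleles, so every cell of the embryo carried the deletion. The XX control at E11.5 carried no deletion and came from ordinary breeding, which neither XY control nor XY KO did. In each sample, 3 or 4 pairs of gonads with their mesonephros were pooled, so no sample gives a spread between embryos, and the strain is labelled C57BL/6 x 129S4/SvJae. With 1 sample per group no test between groups was possible, and the intervals given are exact 95% intervals that cover counting error only. The XY KO at E11.75 differs from the XY control in both stage and genotype, and the XX control differs from it in both sex and origin, so these cannot be told apart. Per the paper, the edited G4 cells were transfected, selected with puromycin and picked as clones, whereas the XY control came from the parental line. Deletion and clone therefore cannot be told apart in either XY KO sample over the XY control.

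D-type cyclins bind CDK4 and CDK6 in G1, and the active complexes phosphorylate the retinoblastoma protein so that E2F factors can start DNA synthesis. CIP/KIP proteins bind cyclin-CDK complexes and can hold a cell in G1, whereas INK4 proteins bind CDK4 and CDK6 themselves. In the early gonad, the coelomic epithelium divides and gives rise to pre-supporting cells, the bipotential precursors of Sertoli and granulosa cells, which leave the cell cycle around the time of sex determination. Cdkn1b is widely used as a marker of this arrest, and Cdkn1c is an imprinted gene expressed mainly from the maternal allele. The miR-17 family is known to repress several regulators of the G1 to S transition, Cdkn1a among them.

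The mature sequences below show which letters of a target the deleted miRNAs could read. The seed (bases 2 to 8, in capitals) is shared within each family, and miR-106b, miR-93 and miR-25 are encoded elsewhere, in the intact miR-106b~25 cluster, with seeds of the miR-17 and miR-92 families. Sequences are from RefSeq (GRCm38.p6).
miR-17-5p: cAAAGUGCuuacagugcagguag
miR-20a-5p: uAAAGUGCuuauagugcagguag
miR-18a-5p: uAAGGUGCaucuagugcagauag
miR-19a-3p: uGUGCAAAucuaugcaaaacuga
miR-19b-3p: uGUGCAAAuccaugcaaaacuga
miR-92a-3p: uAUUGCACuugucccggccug
miR-106b-5p: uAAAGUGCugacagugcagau
miR-93-5p: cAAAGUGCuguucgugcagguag
miR-25-3p: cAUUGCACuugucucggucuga

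The longest annotated 3′ UTR of each member was searched, on its own strand, for the 8-base site and both kinds of 7-base site of each seed above. In all, 5 of 7 members held at least 1 site, beside 43.3% of the 17305 genes of the table with an annotated 3′ UTR. Members with an 8-base site numbered 2, beside 12.3% of all genes. The matched sites of the members are shown with their flanks, the bases that pair with a seed (and, for 8-base sites, the final A) in capitals. A match is a description of letters and not evidence that the miRNA binds there.
Ccnd1, miR-17 family, 7 bases: atttcaaaGCACTTTtggtcag
Ccnd1, miR-19 family, 8 bases: gtaggtaaTTTGCACAcctctgg
Ccnd2, miR-17 family, 7 bases: ttagaaaaGCACTTTgaaaatt
Ccnd2, miR-19 family, 8 bases: ttttttttTTTGCACAattataa
Cdkn1a, miR-17 family, 7 bases: cctgaataGCACTTTggaaaaa
Cdkn1b, miR-19 family, 7 bases: atgcagtaTTTGCACcccaaga
Cdkn1c, miR-92 family, 7 bases: tgaaaactGTGCAATgtattga

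All of these sites are in 3′ UTR exons. On GRCm38 (mm10), the Ccnd1 sites are at chr7:144931676-144931682 and chr7:144931004-144931011 on the minus strand, in a UTR of 2676 bases. The Ccnd2 sites are at chr6:127129340-127129346 and chr6:127128823-127128830 on the minus strand, in a UTR of 5173 bases, longer than that of 96.3% of genes. The Cdkn1a site is at chr17:29099829-29099835 and the Cdkn1b site at chr6:134922262-134922268, both on the plus strand, in UTRs of 1334 and 3439 bases. The Cdkn1c site is at chr7:143458863-143458869 on the minus strand, in a UTR of 688 bases. The UTRs of Ccnd3 (915 bases) and Cdkn2c (373 bases) held none of the searched sites. So the miR-17 family, which the deletion and the intact cluster share, had a site in Ccnd1, Ccnd2 and Cdkn1a, in each case of 7 bases, beside 19.9% of all genes with a site of this family. No comparison of these shares was tested, and the length of a UTR was not matched in them.

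The table held 52745 cells, between 3669 and 23527 a sample, with a median of 3893 to 4763 UMIs per cell in the XY samples and 15509 in the XX control. The host transcript Mir17hg gave 19.8 CPM (UMIs of the gene per 1e6 UMIs summed) in all XY control cells, 156 in the XY KO at E11.5, 161 in the XY KO at E11.75 and 18.2 in the XX control. It was thus higher where the cluster was deleted, and 3′ counts of the host transcript outside the deleted stretch do not check the deletion. In all, 345 cell barcodes occurred in more than 1 run or sample. Cell types are those of the deposited annotation, some of them renamed here. Its "Bipotential progenitors" are called pre-supporting cells, its "Supporting" Sertoli cells and its "Epithelial" coelomic epithelium. Its "Interstitial cells" are called interstitial progenitors and its "Mesonephros" mesonephric mesenchyme. The germ cell, endothelial and neural crest markers were highest in the types so named in every sample, and the Sertoli markers were highest in Sertoli cells in both samples that had at least 50 of them. The marker list of the coelomic epithelium, by contrast, was highest in the mesonephric epithelium in all 4 samples, and that of pre-supporting cells was higher in supporting-like cells in the 3 XY samples, so these types rest on the annotation. The immune marker sum was 923 CPM in the immune cells of the XY control and 3862 CPM in those of the XY KO at E11.5, and median depth there was 1488 against 7040 UMIs. In the XY KO at E11.5 only 24 cells were annotated as Sertoli cells and in the XX control 2, which left Sertoli cells to the XY control (752 cells) and the XY KO at E11.75 (168 cells).

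Among the cell types, the members fell into genes with a broad range and genes that were nearly even. UMIs were summed over the cells of each type and sample and expressed as CPM, for types with at least 50 cells. Ccnd1 ranged from 8.45 CPM in germ cells to 835 CPM in adrenosympathetic cells (neural crest derived) of the XY control, and these were its lowest and highest types in all 4 samples. Ccnd2 was lowest in germ cells in all 4 samples and highest in adrenosympathetic cells or mesonephric mesenchyme, whose intervals overlapped in both controls. Ccnd3 was nearly even, with 105 to 271 CPM over the 13 types of the XY control. Germ cells, low for Ccnd1 and Ccnd2, had 256 CPM of Ccnd3 there, close to its highest value.

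**Figure D1:**
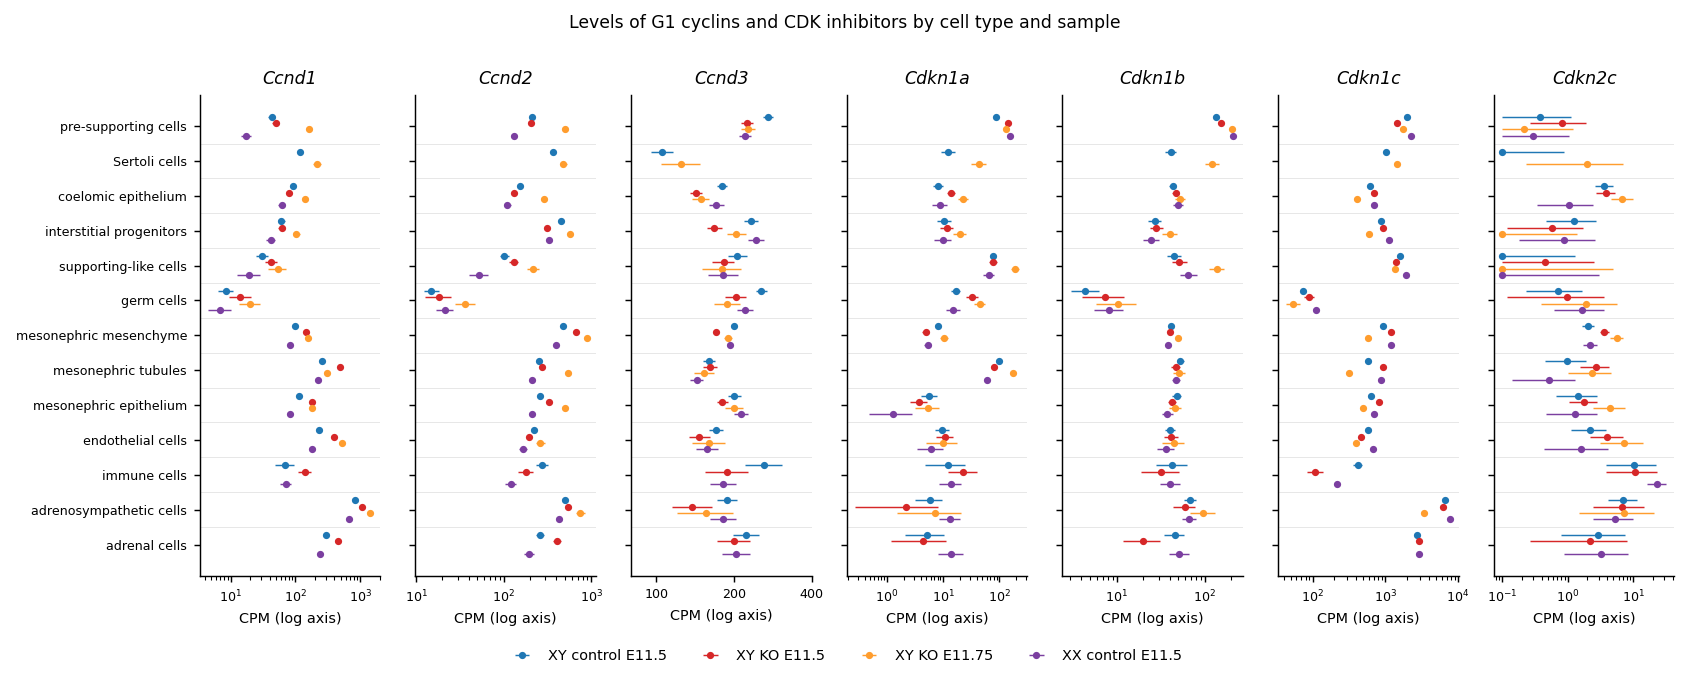
Level of each member (CPM, log axis) in 13 cell types, with 1 point per sample and bars for the exact 95% Poisson interval; levels of 0 are drawn at 0.1 CPM. Cdkn1b is highest in pre-supporting cells in all 4 samples, whereas Ccnd3 is nearly even across types.

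Cdkn1b was highest in pre-supporting cells in every sample, and its interval there did not overlap that of the next type in any of them. In the XY control it measured 133 CPM in pre-supporting cells, 67.6 CPM in the next type, adrenosympathetic cells, and 4.44 CPM in germ cells. Cdkn1a was high in 3 types only: in the XY control, mesonephric tubules held 99.4 CPM, pre-supporting cells 89.0 CPM and supporting-like cells 77.4 CPM, with overlapping intervals between neighbours, whereas the other 10 types held 5.13 to 16.9 CPM. Cdkn1c was highest in adrenosympathetic cells in all 4 samples, at 6674, 6219, 3400 and 7758 CPM in the XY control, the XY KO at E11.5, the XY KO at E11.75 and the XX control. Among the types of the supporting lineage and supporting-like cells, it was highest in pre-supporting cells of every sample, with an interval that overlapped that of supporting-like cells in the XY KO at E11.5. Cdkn2c was scarce, with at most 23.1 CPM in any type and sample, in immune cells of the XX control. In pre-supporting cells it had 3, 5, 1 and 2 UMIs in the same order of samples, at or near the limit of 3 UMIs that a count of 0 allows, so it could not be compared there.

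Along the supporting lineage, the inhibitors were read beside the markers of division. Values from coelomic epithelium to pre-supporting cells, and from these to Sertoli cells, are descriptions, because the cells were clustered on the same genes. In the XY control, Cdkn1a measured 8.25 CPM in coelomic epithelium and 89.0 CPM in pre-supporting cells, Cdkn1b 43.5 and 133 CPM, and Cdkn1c 626 and 1983 CPM. All 3 CIP/KIP genes were higher in pre-supporting cells in all 4 samples. The comparison was made as a log2 ratio centred on the median of all genes that reached 100 UMIs over the pair, and a gene was counted as past the threshold at 1.5-fold. By this measure Cdkn1a was higher by 2.56 to 4.22, Cdkn1b by 1.68 to 2.15 and Cdkn1c by 1.08 to 2.13 across the samples. Of all genes, 32.2% passed 1.5-fold in either direction in the XY control, 24.5% and 25.1% in the XY KO at E11.5 and E11.75 and 33.8% in the XX control, so large differences were common between these types. All 26 genes of a G2/M list (Mki67, Top2a, Cdk1 and others) were lower in pre-supporting cells in each of the 4 samples, with a summed level of 846 CPM against 4701 CPM in the XY control. Summed S-phase genes (23 genes) measured 3129 and 1615 CPM. Ccnd1 was lower in pre-supporting cells than in coelomic epithelium in the XY control (42.9 against 92.8 CPM), the XY KO at E11.5 and the XX control, but not in the XY KO at E11.75, where it measured 159.5 against 140.0 CPM.

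**Figure D2:**
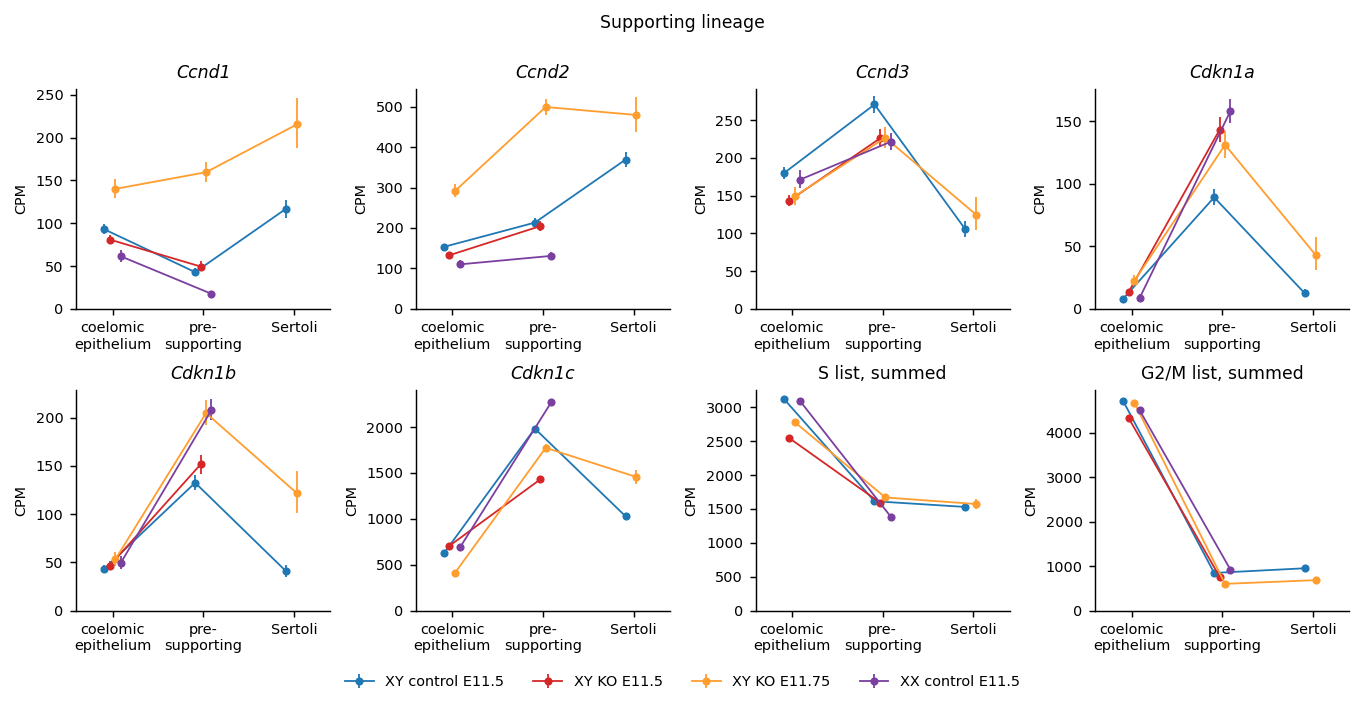
Level (CPM, linear axis from 0) of 6 members and of the summed S and G2/M lists in coelomic epithelium, pre-supporting cells and Sertoli cells, with 1 line per sample and bars for exact 95% Poisson intervals; Sertoli cells are drawn only where at least 50 were annotated. All 3 CIP/KIP genes are higher and the G2/M list is lower in pre-supporting cells than in coelomic epithelium in all 4 samples.

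From pre-supporting to Sertoli cells of the XY control, the inhibitors were lower again and the cyclins parted. Cdkn1a measured 89.0 CPM in pre-supporting and 12.3 CPM in Sertoli cells, a centred log2 ratio of -2.83 (interval -3.28 to -2.43). Cdkn1b went from 133 to 40.9 CPM (-1.68, interval -1.92 to -1.45) and Cdkn1c from 1983 to 1027 CPM (-0.94). Ccnd3 was lower too, at 105 against 271 CPM (-1.35), and Sertoli cells were its lowest type in that sample. Ccnd1, in contrast, was higher in Sertoli cells at 117 against 42.9 CPM (1.46, interval 1.26 to 1.66), as was Ccnd2 at 369 against 213 CPM (0.80). Thus all 6 members with enough counts passed 1.5-fold, beside 19.6% of all genes. The G2/M sum was 951 CPM in Sertoli cells and 846 CPM in pre-supporting cells, and the S sum 1530 and 1615 CPM, so both stayed far below the coelomic epithelium.

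In the XY KO at E11.75 the same contrast was narrower. Cdkn1a measured 131 CPM in pre-supporting and 42.9 CPM in Sertoli cells (-1.62, interval -2.12 to -1.20), Cdkn1b 205 and 122 CPM (-0.77), and Cdkn1c 1773 and 1455 CPM (-0.31). Ccnd1 was 159.5 and 215 CPM (0.41) and Ccnd2 499 and 479 CPM (-0.09). Here 3 of 6 members passed 1.5-fold, Ccnd3, Cdkn1a and Cdkn1b, each lower, beside 14.6% of all genes. For each of the 6 members, the interval of this ratio did not overlap that of the XY control. Set directly beside each other, Sertoli cells of the XY KO at E11.75 held more Cdkn1b than those of the XY control (122 against 40.9 CPM, centred log2 ratio 1.43, interval 1.09 to 1.77) and more Ccnd1 (0.74, interval 0.50 to 0.97), beside 27% of all genes past 1.5-fold in either direction. Ccnd2 (0.24), Ccnd3 (0.10) and Cdkn1c (0.36) did not pass it. Cdkn1a in Sertoli cells measured 42.9 CPM (44 UMIs) against 12.3 CPM (51 UMIs), under the minimum of 100 UMIs. The Sertoli marker sum was 1670 CPM in Sertoli cells of the XY KO at E11.75 and 2616 CPM in those of the XY control, and the part of this difference in the results above was not tested.

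In pre-supporting cells at E11.5, few members stood apart between the XY KO and the XY control. Cdkn1a measured 89.0 CPM (interval 82.6 to 95.9) in the XY control and 143 CPM (134 to 153) in the XY KO. The ranges did not overlap, and Cdkn1a was the 1 of 6 members past 1.5-fold, with a centred log2 ratio of 0.78 (0.63 to 0.92), beside 9.74% of the 9725 genes compared. Over 16 other settings its ratio was between 0.66 and 1.28 and stayed past 1.5-fold in each. Cdkn1b measured 133 CPM in the XY control and 152 CPM in the XY KO (0.29, interval 0.16 to 0.42). Cdkn1c was 1983 CPM in the XY control and 1429 CPM in the XY KO (-0.38, interval -0.42 to -0.34), a ratio opposite in sign to that of Cdkn1a. Among the cyclins, Ccnd1 measured 42.9 and 49.4 CPM (0.30), Ccnd2 213 and 205 CPM (0.03) and Ccnd3 271 and 226 CPM (-0.17). With Sertoli cells counted in, of which the XY KO had few, the ratio of Ccnd1 was -0.40 and that of Cdkn1b 0.69. The uncentred median of all genes was -0.09 in this comparison, 0.19 for the XY KO at E11.75 and -0.11 for the XX control, and the values given are relative to it. Pre-supporting cells of the XY control had a Sertoli marker sum of 316 CPM. Those of the XY KO had at most 86.9 CPM at E11.5 and at most 179 CPM at E11.75. The part of this difference in the ratios over the XY control was not tested.

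**Figure D3:**
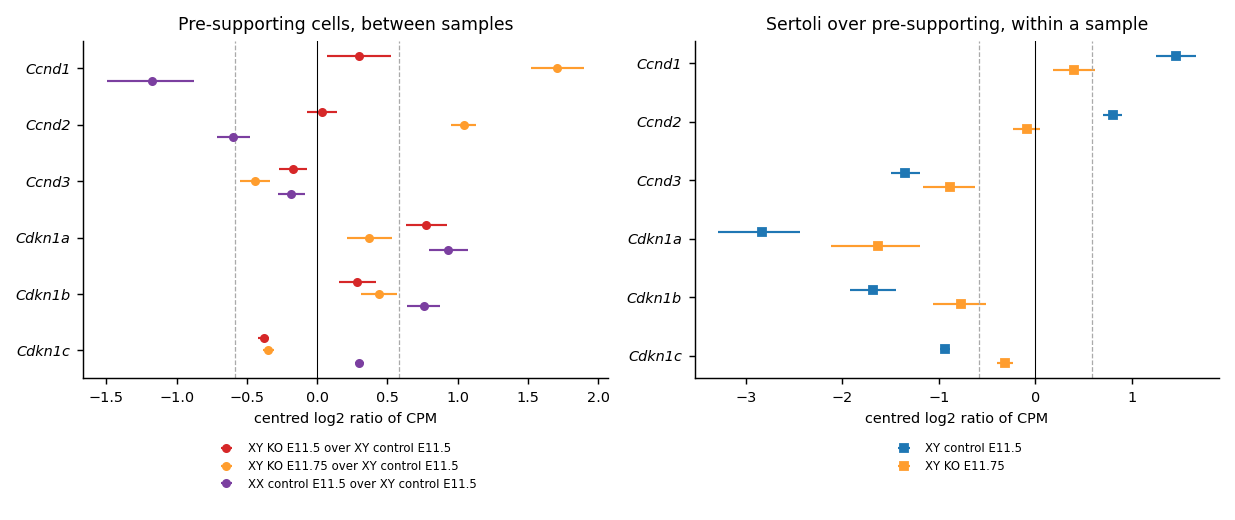
Centred log2 ratio of CPM for 6 members (points) with exact 95% binomial intervals (bars); dashed lines mark 1.5-fold. Left, 3 samples over the XY control at E11.5 in pre-supporting cells, where Cdkn1a is past 1.5-fold in the XY KO at E11.5 and in the XX control; right, Sertoli over pre-supporting cells within 2 samples, where the ratios are closer to 0 in the XY KO at E11.75.

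At E11.75, Ccnd1 and Ccnd2 were the members of the XY KO furthest from the XY control. In pre-supporting cells, Ccnd1 measured 159.5 CPM (148 to 172) in the XY KO at E11.75, against 42.9 CPM in the XY control and 49.4 CPM in the XY KO at E11.5. This gave a centred log2 ratio of 1.71 (1.52 to 1.90) over the XY control. Ccnd2 measured 499 CPM against 213 CPM in the XY control and 205 CPM in the XY KO at E11.5 (1.04 over the XY control, interval 0.95 to 1.13). Both cyclins were therefore also higher than in the earlier XY KO sample, with a ratio of 1.40 (1.21 to 1.61) for Ccnd1 and an interval of 0.90 to 1.10 for Ccnd2. These were the 2 of 6 members past 1.5-fold over the XY control, beside 23.2% of all genes, and the 2 past it over the XY KO at E11.5, beside 25.5%, so as a count this was near the share of all genes. Cdkn1a over the XY KO at E11.5 was at -0.41, and past 1.5-fold (-0.61) with Sertoli cells counted in. Ccnd3 went the other way, at 227 CPM against 271 CPM (-0.44). Across genes, the ratio over the XY control rose with the length of the 3′ UTR (Spearman rho 0.38 over 9485 genes, as a description), and the UTRs of Ccnd1 and Ccnd2 are long. Compared only with genes of like UTR length (10 bins), Ccnd1 was at 1.56 and Ccnd2 at 0.78. The ratio over the XY KO at E11.5 rose with UTR length too (Spearman rho 0.44 over 9082 genes). Over 14 other settings of that comparison, Ccnd1 was down to 1.21 and Ccnd2 down to 0.67. Cdkn1a measured 131 CPM (0.37, interval 0.21 to 0.53), Cdkn1b 205 CPM (0.44, interval 0.31 to 0.57) and Cdkn1c 1773 CPM (-0.35). Cdkn1b was past 1.5-fold without centring (0.63), as were Cdkn1a (0.69) and Cdkn1b (0.73) with Sertoli cells counted in. The median mitochondrial share of pre-supporting cells was 6.16% in this sample and 3.38% to 4.67% in the others, and its part in these ratios was not tested.

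The XX control set low Ccnd1 and Ccnd2 against high Cdkn1a and Cdkn1b. In pre-supporting cells, Ccnd1 measured 17.5 CPM (14.5 to 21.0) against 42.9 CPM in the XY control, the lowest of the 4 samples, with a centred log2 ratio of -1.18, or 0.442-fold (0.355 to 0.545). Its technical runs were apart, at -0.78 with XX run 1 alone and -1.68 with XX run 2 alone. Ccnd2 was at 131 against 213 CPM (-0.60, interval -0.72 to -0.48), which was no longer past 1.5-fold with XX run 1 alone (-0.51), with XY control run 2 alone (-0.57) or against genes of like UTR length (-0.51). Cdkn1a measured 158 against 89.0 CPM (0.93, interval 0.80 to 1.07) and Cdkn1b 208 against 133 CPM (0.76, interval 0.64 to 0.87). So 4 of 6 members passed 1.5-fold, beside 8.08% of all genes, the cyclins lower and the inhibitors higher. Cdkn1c was at 2268 against 1983 CPM (0.30) and Ccnd3 at 221 against 271 CPM (-0.18). Cdkn1a in the XY KO at E11.5 (143 CPM, interval 134 to 153) lay between the XY control and the XX control (158 CPM, interval 149 to 168), overlapping the latter. The XX control was sequenced more deeply, with a median of 17498.5 UMIs per pre-supporting cell against 4522 in the XY control. With every cell thinned to 3000 UMIs, the XX ratios of Ccnd1, Cdkn1a and Cdkn1b were still past 1.5-fold. The Sertoli marker sum of pre-supporting cells was 316 CPM in the XY control and at most 89.1 CPM in the XX control. The part of this difference in the XX ratios was not tested.

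Across the other cell types, Ccnd1 leaned one way in the XY KO samples. At E11.5 it was past 1.5-fold and higher in 6 of the 11 types with enough counts and lower in none. Of all pairs of a gene and a cell type in this comparison, 2.93% were higher and 3.72% lower past 1.5-fold. The call of adrenal cells was lost in 3 of 15 other settings and those of immune cells and mesonephric mesenchyme in 1 each. In mesonephric tubules it measured 255 CPM in the XY control and 491 CPM in the XY KO (1.03), and in endothelial cells 230.3 and 388 CPM (0.79). In pre-supporting cells and coelomic epithelium, in contrast, it was at 0.30 and -0.09. At E11.75 Ccnd1 was higher past 1.5-fold in 6 of 10 types and Ccnd2 in 7 of 11, neither lower in any, beside 8.36% of all pairs higher and 12.5% lower. For Ccnd1, the call of adrenosympathetic cells was lost in 4 of 13 other settings and those of interstitial progenitors and supporting-like cells in 3 each. For Ccnd2, the calls of coelomic epithelium, mesonephric epithelium and mesonephric mesenchyme were each lost in 1 of 13. Ccnd2 of mesonephric tubules, for example, was at 541 against 254 CPM (0.95). The tubule marker sum in mesonephric tubules was 666 CPM in the XY control and 421 CPM in the XX control. In the XY KO it was 484 CPM at E11.5 and 923 CPM at E11.75. The part of these differences in the ratios of any member in mesonephric tubules was not tested. In the XX control, the centred ratio of Ccnd1 was below 0 in 10 of 11 types, and past 1.5-fold in pre-supporting cells, beside 3.2% of all pairs higher and 5.56% lower. Supporting-like cells lay just short of it (-0.57), with a range of -1.21 to 0.29 over 15 other settings, 6 of them past 1.5-fold.

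**Figure D4:**
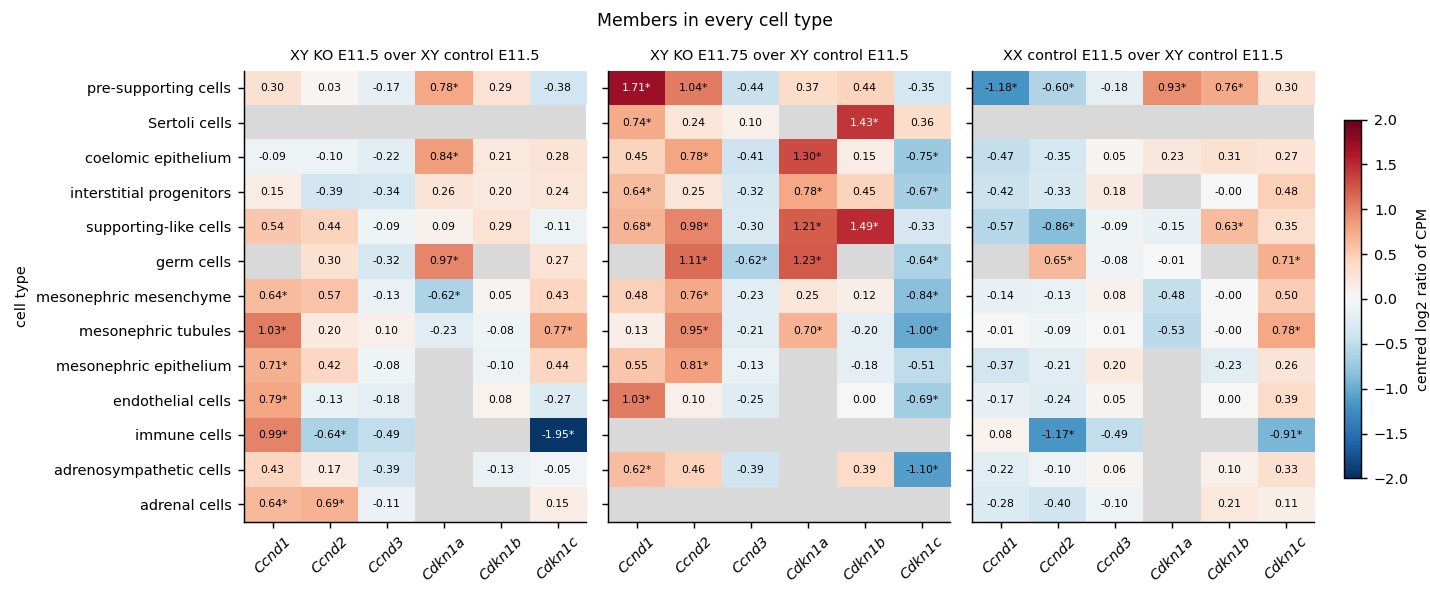
Centred log2 ratio of CPM for 6 members (columns) in 13 cell types (rows) in 3 samples over the XY control at E11.5; asterisks mark values past 1.5-fold and grey marks pairs with under 50 cells in a sample or under 100 UMIs over both. The ratio of Cdkn1c is below 0 in 10 of 11 types of the XY KO at E11.75, and that of Ccnd1 is above 0 in 10 of 11 types of the XY KO at E11.5.

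Cdkn1c was lower in most types of the XY KO at E11.75 than in the XY control. In the XY KO at E11.75 it was lower past 1.5-fold in 7 of 11 types and higher in none, beside 12.5% of all pairs lower. Of these calls, that of germ cells was lost in 5 of 13 other settings and those of endothelial cells and interstitial progenitors in 3 each. Adrenosympathetic cells, its richest type, held 6674 CPM in the XY control, 6219 CPM in the XY KO at E11.5 and 3400 CPM in the XY KO at E11.75, and coelomic epithelium 626, 706 and 410.5 CPM in the same order. Sertoli cells were the 1 type with a ratio above 0 (1455 against 1027 CPM, 0.36). The XY KO at E11.75 was 1 run, with a higher median mitochondrial share than the XY control in every type. Over all cells it was 5.67% against 4.26%. The part of this in the ratios of Cdkn1c, Ccnd1 and Ccnd2 across types was not tested. For the XY KO at E11.75 over the XY KO at E11.5, the ratio of Cdkn1c was -0.90 at the median of 10 types. It was 0.03 in pre-supporting cells and -0.20 in supporting-like cells. At E11.5 the XY KO had more Cdkn1c in mesonephric tubules (926 against 577 CPM, 0.77) and less in immune cells (108 against 416 CPM, -1.95). Of all genes, 7.57% passed 1.5-fold in either direction in those tubules and 24.6% in those immune cells. In the XX control Cdkn1c was above the XY control in 11 of 12 types, by 0.34 at the median.

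Among the inhibitors, Cdkn1a was higher in the XY KO at E11.5 also in coelomic epithelium (13.7 against 8.25 CPM, 0.84) and germ cells (32.7 against 16.9 CPM, 0.97). The call of coelomic epithelium was lost in 2 of 15 other settings, down to 0.26 with cells thinned to 3000 UMIs. Cdkn1a was lower in mesonephric mesenchyme (4.90 against 8.04 CPM, -0.62), a call lost in 4 of 15. At E11.75 Cdkn1a was higher past 1.5-fold in 5 of 7 types and lower in none, beside 8.36% of all pairs higher, reaching 192 CPM in supporting-like cells against 77.4 CPM in the XY control (1.21). The call of interstitial progenitors (0.78) was lost in 1 of 13 other settings, at 0.30. Cdkn1b was past 1.5-fold in no type of the XY KO at E11.5 (9 types compared), near the 2.93% of all pairs higher and 3.72% lower. At E11.75 it was higher in supporting-like cells (136 against 44.9 CPM, 1.49) and in Sertoli cells. Of the comparisons between samples, each over 10 to 12 types, Ccnd3 passed 1.5-fold in 1 type in 1 comparison. This was germ cells of the XY KO at E11.75 (189 against 256 CPM, -0.62), a call lost in 3 of 13 other settings. In those cells 10.1% of all genes were lower past 1.5-fold. Cdkn2c had enough counts in mesonephric mesenchyme only, where it was at 3.61 CPM in the XY KO at E11.5 (0.89) and 5.66 CPM in the XY KO at E11.75 (1.29), against 2.08 CPM in the XY control.

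The share of pre-supporting cells with a UMI of a gene followed these levels. After thinning every cell to 3000 UMIs, Cdkn1a was seen in 19.2% of cells of the XY control (17.2% to 21.3%), 29.0% of the XY KO at E11.5, 25.03% of the XY KO at E11.75 and 30.1% of the XX control. In adrenal cells of the XY control, the type with least Cdkn1a, the share at the same depth was 1.74% (0.476% to 4.39%). Without thinning, the shares were 24.9%, 39.7%, 34.3% and 66.8%, the last from far deeper cells. Ccnd1 was seen in 9.54% of pre-supporting cells of the XY control, 12.4% of the XY KO at E11.5, 32.1% of the XY KO at E11.75 and 4.58% of the XX control, against 1.98% of germ cells of the XY control. Cdkn1b was seen in 29.7%, 29.8%, 40.4% and 45.6% of pre-supporting cells in the same order, against 0.90% of germ cells. Thinning left out 173 of 1641 cells of the XY control and 3 of 352 of the XX control.

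Within pre-supporting cells, G2/M transcripts were compared between cells with and without a UMI of each member. Cells thinned to 3000 UMIs were split by a UMI of the member, and the share with at least 2 UMIs of the G2/M list was taken. In the XY control it was 66.0% (60.1% to 71.5%) of the 282 cells with Cdkn1a and 64.9% (62.1% to 67.6%) of the 1186 cells without. For Cdkn1b the shares were 64.7% with and 65.3% without, and for Cdkn1c 64.7% at or above the median of 4 UMIs and 65.6% below it. For Cdkn1a of the XY control the interval of the difference was -5.42 to 7.21 percentage points, but with cells thinned to 2000 UMIs the shares were 56.5% with and 48.3% without, a difference of 8.17 points (1.10 to 15.1). At 5000 UMIs the difference was 0.039 points (-7.90 to 7.08). Over the 6 members and 4 samples, with the split of Cdkn1c at its median added, 0 of 28 intervals at 3000 UMIs lay off 0, 1 of 28 at 2000 UMIs, that of Cdkn1a, and 0 of 27 at 5000 UMIs. In the XY KO at E11.5 the shares for Cdkn1a were 57.9% and 57.7%. At E11.75 they were 54.3% and 47.0%, with overlapping intervals (47.3% to 61.2% and 43.1% to 51.0%). A single UMI is a coarse measure of a cell's level at this depth, so differences of a few percentage points may be missed. The cut of 2 G2/M UMIs is coarse too, since 65.1% of all pre-supporting cells of the XY control passed it. Over all pre-supporting cells the share was 65.1% in the XY control, 57.8% in the XY KO at E11.5 and 48.9% in the XY KO at E11.75, and the summed G2/M level followed it at 846, 762 and 601 CPM. For the XX control the share (52.1%) and the sum (918 CPM) disagreed in order.

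Partners of the members were read beside them. Of a list of 25 genes of the G1 to S transition (CDKs, E2F factors, pocket proteins and their regulators), 19 had enough counts in pre-supporting cells, and 0 passed 1.5-fold in the XY KO at E11.5, with a median of 0.08, beside 9.74% of all genes (4.13% higher and 5.6% lower). The highest were E2f1, a transcription factor that opens S phase, at 13.8 against 10.53 CPM (0.48), and Mycn, a growth-promoting factor, at 43.5 against 35.3 CPM (0.39). The lowest were Ccne2, a cyclin partner of CDK2, at 7.63 against 11.03 CPM (-0.43), and Cdkn2d, an INK4 inhibitor, at 17.9 against 24.1 CPM (-0.33). At E11.75, 3 of 20 list genes were higher and 1 lower, near the 9.16% higher and 14% lower of all genes, with E2f1 (20.3 CPM, 0.76) and Mycn (77.1 CPM, 0.94) among the higher ones. In the XX control 0 of 21 passed, with a median of -0.20, beside 2.91% of all genes higher and 5.17% lower. The G2/M list was past 1.5-fold and lower for 11 of 24 genes in the XY KO at E11.75 (14% of all genes), for 0 of 26 in the XY KO at E11.5 (5.6%), and higher for 3 of 26 in the XX control (2.91%).

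Because Cdkn1a is a classical p53 target, other genes of that response were read beside it. Of 14 such genes, 9 could be compared in pre-supporting cells of the XY KO at E11.5, and 0 passed 1.5-fold, with a median of -0.14, beside 9.74% of all genes. Mdm2, which degrades p53, measured 41.6 CPM in the XY control and 40.3 CPM in the XY KO (0.05), and Ccng1, another p53 target, 22.7 and 14.4 CPM (-0.56). Genes induced by tissue dissociation (Fos, Jun, Egr1 and others) were past 1.5-fold and lower for 3 of 11 and higher for 0, with a median of -0.54, beside 5.6% of all genes lower. In the XX control the same list was higher for 3 of 11 and lower for 2, with a median of 0.42, beside 2.91% and 5.17% of all genes, and its part in the levels of Cdkn1a was not tested.

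Beside Cdkn1c, imprinted genes of the same chromosome arm were uneven. H19, a maternally expressed RNA, measured 482 CPM in pre-supporting cells of the XY control, 5.14 CPM in the XY KO at E11.5, 3.27 CPM in the XY KO at E11.75 and 1020.3 CPM in the XX control. Its centred log2 ratios in the KO samples were -6.44 and -7.34. Igf2, the paternally expressed growth factor next to it, measured 34.2, 56.2, 61.9 and 41.1 CPM (0.81 and 0.67 in the KO samples). Kcnq1ot1, the paternal RNA of the domain that holds Cdkn1c, measured 393, 302, 848 and 407 CPM, with ratios of -0.29 at E11.5 and 0.92 at E11.75. Of the 10 genes in the list, 6 could be compared at E11.5, where 2 were higher and 1 lower, beside 4.13% and 5.6% of all genes. How these relate to the level of Cdkn1c was not tested.

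The genes most like each member across 48 sums of cell type and sample were found by Pearson r of log2(CPM + 1) among 11857 genes. Points of a sample share its depth, and r is a description. Ccnd1 was closest to Lin7c (0.89), Oraov1 (0.87) and Lrrc8b (0.86), Ccnd2 to Rhoq, Zfp518b and Clcn4 (0.89 each) and Ccnd3 to Rbm7 (0.61), Polr3gl (0.59) and Ttc33 (0.57), the weakest likeness of any member. Cdkn1a was closest to Slc11a2 (0.84), Fam83g (0.82) and Espn (0.79), and Cdkn1b to Nucb2 (0.85), Ccnjl (0.85) and Pik3c2a (0.84). Cdkn1c was closest to Ndn (0.89), itself an imprinted gene, then Gstm5 (0.88) and Tspan7 (0.86). Cdkn2c was closest to Rassf4 (0.80), Troap (0.78) and Mki67 (0.77), the marker of dividing cells. The likeness of Cdkn2c rests on few counts, 144 to 266 UMIs a sample over all cells, fewer than the 1000 UMIs in all that were asked of the other genes.

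The ratios in pre-supporting cells were set beside the seed sites. The genes with a miR-17 family site, Ccnd1, Ccnd2 and Cdkn1a, were at 0.30, 0.03 and 0.78 in pre-supporting cells of the XY KO at E11.5 and at 1.71, 1.04 and 0.37 at E11.75. Ccnd1 and Ccnd2 also hold the 8-base miR-19 family sites. Cdkn1b, with a 7-base miR-19 family site alone, was at 0.29 and 0.44, and Cdkn1c, with a miR-92 family site, at -0.38 and -0.35. Ccnd3, with none of the searched sites, was at -0.17 and -0.44. Of the 5 genes with any searched site, Ccnd1, Ccnd2, Cdkn1a and Cdkn1b were above 0 at both stages, Ccnd2 at E11.5 by 0.03 only. Cdkn1c was below 0 at both, as was Ccnd3, which holds no site. Centring on the median of the compared genes puts as many of them above 0 as below it. The share above 0 among all genes with a site was not taken, so the signs of the members have no background. At E11.5 Ccnd1 (down to -0.40), Ccnd2 (-0.30) and Ccnd3 (up to 0.17) crossed 0 in some of the 16 other settings. Both XY KO samples share the same XY control. The UTRs of Cdkn1c (688 bases) and Ccnd3 (915 bases) are also shorter than those of the genes above 0. In the XX control, which carried no deletion, Cdkn1a (0.93) and Cdkn1b (0.76) were above 0 and Ccnd1 (-1.18) and Ccnd2 (-0.60) below it. Whether the sites bear on the ratios was not tested.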

How the data were processed

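Pooled gonads with mesonephros were dissociated with trypsin, fixed in methanol and profiled by droplet 3′ single-cell RNA-seq. Per the labels, the authors used Cell Ranger 6.1.1, the mm10 build and Seurat. The deposited integrated table holds raw UMI counts of 21495 genes in 52745 cells, all whole numbers, and a deposited metadata table gives cell type, sample and the percent of mitochondrial counts. The authors filtered cells of the XY samples by upper limits on mitochondrial share, globin share, UMIs and genes. The mitochondrial and globin limits were not the same in all XY samples. The XX control was filtered by removing low-quality clusters instead. Doublets were excluded with DoubletFinder and a further cluster was taken out by hand after integration. All of this was before deposit, and no more cells were removed here. The part of these unequal filters in the depth, mitochondrial and globin values was not tested.

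UMI counts were summed per cell type and sample (at least 50 cells) and given as CPM with exact Poisson intervals. Log2 ratios used a prior count of 0.5 and were centred on the median of genes that reached 100 UMIs in the 2 samples together. Intervals of ratios are exact binomial and those of shares Clopper-Pearson (95%), for counting error only. With 1 sample per group no test was run. A gene counted as past the threshold at 1.5-fold. Technical runs (2 for each sample except the XY KO at E11.75) are not replicates. Cells were thinned at random with a fixed seed. Genes named beyond the members were the 3 most alike by Pearson r (at least 1000 UMIs), the 2 highest and 2 lowest of the G1 to S list, and H19, Igf2, Kcnq1ot1, Mdm2 and Ccng1. The members and lists were chosen with earlier results of these data known. Sites were searched in GENCODE M21 3′ UTRs on GRCm38, in which 98.6% of the genes were found. Ratios were tested on simulated data. Python 3.11.15, scipy 1.17.1 and edgeR 4.0.16 (TMM factors) were used.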

Additional observations from a re-analysis of the deposited data

Results flagged for a closer look

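Several members passed 1.5-fold in opposite directions in different cell types under the same comparison. None of these differences between cell types was tested, since each group is 1 sample, and several of these calls were lost in some of the 15 other settings run. Those of Ccnd2 in immune cells of the XY KO and in germ cells of the XX control were lost in 5 each, that of Cdkn1a in mesonephric mesenchyme of the XY KO in 4 and that of Cdkn1c in immune cells of the XX control in 3.

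In the XY KO over the XY control at E11.5, Cdkn1a was higher in germ cells (0.97, from 67 against 118 UMIs) and lower in mesonephric mesenchyme (-0.62). Ccnd2 was higher in adrenal cells (0.69) and lower in immune cells (-0.64). Cdkn1c was higher in mesonephric tubules (0.77) and lower in immune cells (-1.95). Of all genes in this comparison, 24.6% passed 1.5-fold in either direction in immune cells and 4.35% in germ cells. In mesonephric mesenchyme, adrenal cells and mesonephric tubules the shares were 5.98%, 6.93% and 7.57%. In the XX control over the XY control, Ccnd2 was higher in germ cells (0.65) and lower in immune cells (-1.17), and Cdkn1c was higher in mesonephric tubules (0.78) and lower in immune cells (-0.91). The immune cells of the XY control had a lower immune marker sum (923 CPM, against 3862 CPM in the XY KO at E11.5 and 4384 CPM in the XX control) and a higher globin sum than any other type of that sample (3665 CPM). The part of this in the immune values was not tested.

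In the XY KO at E11.75 over the XY KO at E11.5, Ccnd1 was higher in pre-supporting cells (1.40) and lower in mesonephric tubules (-0.91), a call lost in 1 of 13 other settings (-0.58). Of all genes, 25.5% passed 1.5-fold in pre-supporting cells and 21.9% in mesonephric tubules of this comparison.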

How the results depend on the processing

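No paired analysis was possible because each group has 1 sample. The member ratios in pre-supporting cells kept their side of 1.5-fold under most alternatives, and the exceptions are given with the results. Counts of members past 1.5-fold moved as follows. At 2-fold they were 0 for the XY KO at E11.5, 1 for the XX control and, for Sertoli over pre-supporting cells, 4 in the XY control and 1 in the XY KO at E11.75. Without centring they were 3 for the XY KO at E11.75, and for the XX control 3 in each of the settings that lost Ccnd2 and at a minimum of 500 UMIs. With Sertoli cells counted in, they were 2 for the XY KO at E11.5, 4 for the XY KO at E11.75 and 3 for the latter over the former. The cause of these moves was not tested, beyond the stricter fold. The leave-out of shared barcodes and the runs of the XX control alone were chosen after seeing the data.

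Counts of genes of the G1 to S list moved as follows. For the XY KO at E11.5 (0 genes) they were 1 at a minimum of 50 UMIs, with cells of at least 5000 UMIs, with XY control run 1 alone and with either XY KO run alone, and 2 with Sertoli cells counted in. For the XX control (0 genes) they were 1 against genes of like UTR length, as a mean over cells, with cells of at least 5000 UMIs, thinned, with XY control run 2 alone and without shared barcodes, 2 with XY control run 1 alone and 4 with Sertoli cells counted in. For the XY KO at E11.75 they were 0 at 2-fold and 2 with Sertoli cells counted in. Over the XY KO at E11.5 they were 0 at 2-fold and 6 without centring or at a minimum of 50 UMIs. For Sertoli over pre-supporting cells they were 1 at 2-fold and 2 at a minimum of 500 UMIs in the XY control, and 0 at a minimum of 500 UMIs and 2 when thinned in the XY KO at E11.75. Members with a seed site were 2 with 8-base sites only.

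Values past 1.5-fold changed sign for the XX control over the XY control alone: Ccnd2 of germ cells thinned to 3000 UMIs (-0.011), Cdkn1c of germ cells with XX run 1 alone (-0.062), and Cdkn1c of immune cells with cells of at least 5000 UMIs (0.41) and with XY control run 1 alone (0.13). Depth limits Cdkn2c, and Cdkn1a outside 3 types.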
